A study of Mus musculus with 14 samples.

Results

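Caspases are the proteases that take a cell apart during apoptosis or, in a smaller inflammatory branch, cut cytokines. The 8 genes described here are 6 caspases (Casp1, Casp2, Casp6, Casp8, Casp9 and Casp12) and 2 adaptors that switch caspases on (Apaf1 and Fadd). They were chosen by symbol, as every non-control probe set whose annotation names 1 of these genes and no other. All 8 genes were on the array, with 12 of its 12422 non-control probe sets. Casp9 had 4 probe sets, Casp2 had 2 and the other genes had 1 each.

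RNA came from cerebella of patched heterozygous mice (patched, or Ptch1, is the hedgehog receptor whose loss predisposes to medulloblastoma), a line kept by breeding to 129X1/SvJ mice. The labels call the youngest mice patched+/- and the older ones patched mutants. The groups were granule cell precursors from mice aged 7 days (GCP, 4 arrays), preneoplastic cells from mice aged 6 weeks (pretumor, 5 arrays) and tumor cells from mice aged 10 to 25 weeks with signs of medulloblastoma (tumor, 5 arrays). No array analysed here came from a mouse without the patched mutation, and whether these mice also carried the Math1-GFP transgene of the colony is not given in the labels. Cells were collected from a Percoll step gradient without flow sorting, so age, stage and cell makeup change together. In such bulk samples fewer cells of a type and less RNA per cell cannot be told apart. The labels do not tie the samples of a group to separate animals, and the tests use only the spread among the arrays, part of which may be technical.

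Apoptosis reaches the caspases by 2 routes. At the cell surface, a death receptor gathers the adaptor FADD, which brings copies of the initiator caspase-8 together. Inside the cell, cytochrome c released from mitochondria makes APAF1 assemble into the apoptosome, which activates the initiator caspase-9. In the developing brain the second route removes many precursors and young neurons, and mice without APAF1 or caspase-9 are known to keep surplus neural cells. Initiators then cut executioner caspases, of which caspase-6 is one. Caspase-2 is an initiator that a platform of its own activates, and caspase-1 and caspase-12 belong to the inflammatory branch.

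Values are log2 of the deposited intensity. Intensities below 16 (log2 of 4) lie in a narrow band close to the lowest values on the array, called the low band here, and 70.5% of all values are in it. Median intensities of the arrays ran from 4.12 to 4.39 before the log, and 29.2% to 29.8% of probe sets per array reached 16. The GCP arrays formed 2 pairs by their whole-array correlation (r = 0.9976 for GCP 1 and 2, 0.9975 for GCP 3 and 4, and 0.9938 to 0.9955 across the pairs), and whether a pair shares animals or an extract is not given in the labels. On an axis fitted to the deviations of all arrays from their group means, pretumor 3 at 28.4 and tumor 2 at 29.8 lay furthest from the rest. Of the granule cell lineage markers, Neurod1 averaged 12.83 in GCP, 11.45 in pretumor and 11.58 in tumor arrays, and Zic1 averaged 12.74, 12.59 and 12.64. Atoh1 (Math1), a defining gene of the precursors, stayed in the low band in all 3 groups at 1.95, 1.90 and 2.01.

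Most of the members were not measured above the low band. In every group Casp1, Casp6, Casp8, Casp12, Fadd and 3 of the 4 Casp9 probe sets had mean log2 intensities below 4. The 4 probe sets above it were both of Casp2, the Casp9 probe set 103711_at and the Apaf1 probe set 103796_at. Differences were tested with limma on the whole array of 12422, and "called" means a Benjamini-Hochberg adjusted p under 0.05. In pretumor against GCP samples limma called 1 of the 12 member probe sets, lower, against a background of 4.36% of all probe sets called in either direction and 2.69% called lower. In tumor against GCP samples it called 1 of 12, again lower, against 4.6% in either direction and 3.19% lower. Both calls were Casp8. Of the 8 member probe sets in the low band 1, 1 and 0 were thus called in the 3 comparisons, against 2.36%, 2.15% and 0.524% of the 8594 probe sets of that kind on the array. Of the 4 above it none was, against 8.83%, 10.1% and 2.06%. In tumor against pretumor samples it called 0 of 12, against a background of 0.998%, while 1 of 12 (Apaf1) had an unadjusted p under 0.05. The first 2 comparisons share the GCP arrays and are not independent of each other. At an unadjusted p under 0.05 the count was 5 of 12 in both comparisons with GCP, against 15.4% of all probe sets in each, and 1 of 12 against 11.3% in tumor against pretumor samples. By band, the unadjusted counts were 2 of 4 above it (27.1% of such probe sets) and 3 of 8 in it (10.2%) for pretumor against GCP, 3 of 4 (29.2%) and 2 of 8 (9.25%) for tumor against GCP, and 1 of 4 (15.3%) and 0 of 8 (9.53%) for tumor against pretumor samples. The median difference over the 12 probe sets was -0.04 in pretumor against GCP, 0.0036 in tumor against GCP and 0.04 in tumor against pretumor samples. Over all probe sets it was -0.0052, 0.0024 and 0.01.

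**Figure D1:**
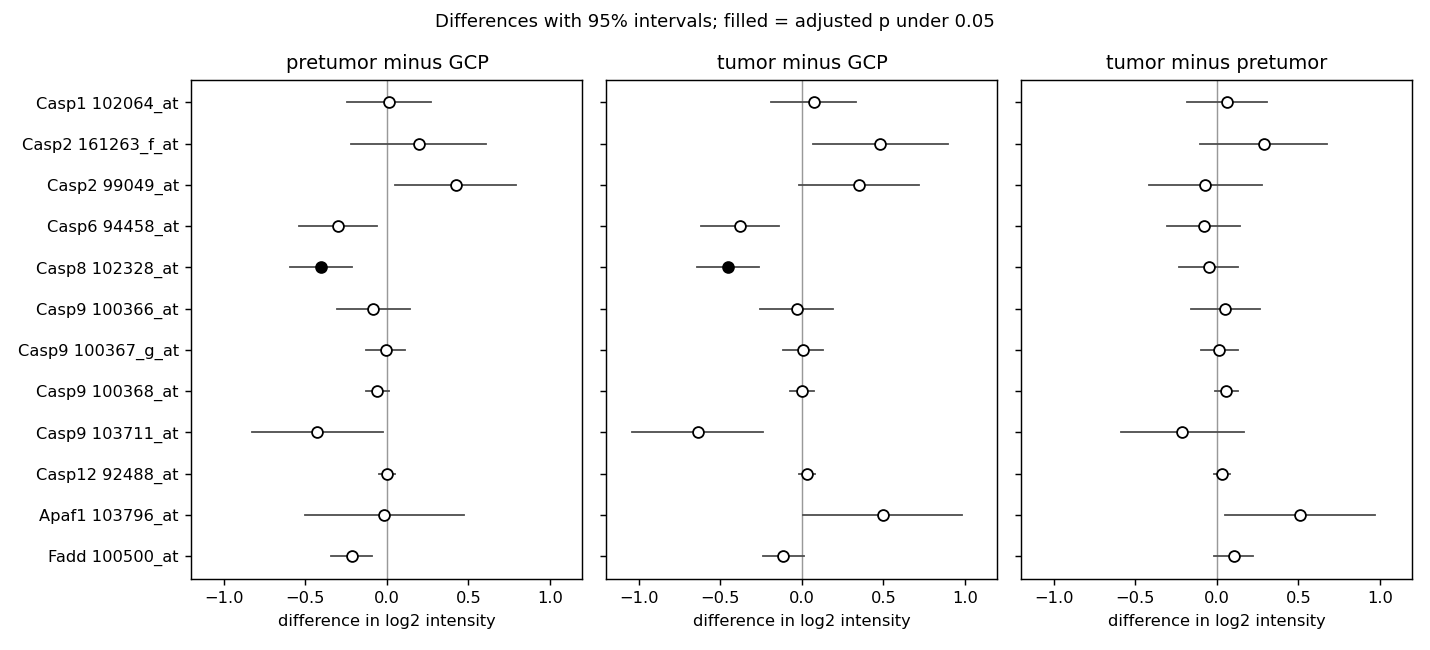
Difference in log2 intensity of each member probe set (rows) in 3 comparisons (panels), with its 95% interval from limma as a line. Filled circles have an adjusted p under 0.05, and Casp8 is filled in the first panel (-0.40) and the second (-0.45), and nothing is filled in the third.

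The receptor route was read by Fadd and Casp8. The upstream window of Casp8, the called member, is printed here beside those of the 3 genes measured above the low band, since these windows differ in makeup. Each is the 250 bases before a RefSeq transcription start in GRCm38.p6, written 5′ to 3′ on the gene's strand. Capitals mark matches on either strand to GGGCGG (the GC box), CCAAT (the CCAAT box), TATAAA (the TATA box) or the E2F site in any of 4 spellings, TTTCCCGC, TTTCGCGC, TTTGCCGC and TTTGGCGC. In Casp2 and Fadd the E2F site overlaps a GC box, so that both fall in 1 run of capitals.
Casp8, chr1:58802252-58802501, plus strand: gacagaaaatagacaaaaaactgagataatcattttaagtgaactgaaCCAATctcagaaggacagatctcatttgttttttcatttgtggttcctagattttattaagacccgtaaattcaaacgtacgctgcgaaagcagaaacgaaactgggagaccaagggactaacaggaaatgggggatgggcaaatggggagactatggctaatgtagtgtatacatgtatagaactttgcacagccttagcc
Casp9, chr4:141793362-141793611, plus strand: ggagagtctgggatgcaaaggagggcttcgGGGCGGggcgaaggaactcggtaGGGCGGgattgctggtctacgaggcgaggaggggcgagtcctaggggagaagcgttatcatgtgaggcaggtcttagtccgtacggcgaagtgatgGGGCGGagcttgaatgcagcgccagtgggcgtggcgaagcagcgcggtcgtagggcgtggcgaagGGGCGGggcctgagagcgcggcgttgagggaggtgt
Apaf1, chr10:91082744-91082993, minus strand: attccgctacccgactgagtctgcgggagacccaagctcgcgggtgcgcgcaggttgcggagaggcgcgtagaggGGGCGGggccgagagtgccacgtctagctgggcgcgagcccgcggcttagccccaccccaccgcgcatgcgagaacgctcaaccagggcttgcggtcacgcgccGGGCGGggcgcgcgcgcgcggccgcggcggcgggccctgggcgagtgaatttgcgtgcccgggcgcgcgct
Casp2, chr6:42264735-42264984, plus strand: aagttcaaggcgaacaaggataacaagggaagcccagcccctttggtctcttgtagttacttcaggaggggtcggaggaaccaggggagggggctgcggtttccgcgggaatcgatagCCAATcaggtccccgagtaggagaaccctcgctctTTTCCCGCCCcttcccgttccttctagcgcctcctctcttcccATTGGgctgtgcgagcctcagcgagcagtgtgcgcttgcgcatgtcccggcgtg

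The 8 members all had a window in the RefSeq table, 1 each. The Casp8 window is 39.6% G and C and holds a CCAAT box and no GC box. It lies inside the gene, whose range starts at 58795233, so it precedes an internal start. The Casp2 window ends at 42264984, past the start of its gene range at 42264902, so it also precedes an internal start. The Casp9 and Apaf1 windows instead adjoin the outer end of their genes, so the windows are not alike in place. The sequence before the outer Casp8 start was not examined. The Casp9 window is 66.0% G and C with 4 GC boxes, that of Apaf1 is 75.6% G and C with 2 GC boxes, and that of Casp2 is 60.4% G and C with 1 GC box, 2 CCAAT boxes and 1 E2F site. Over the members, 5 of 8 windows hold a GC box, against 32.7% of 32851 mouse windows of the same length. A CCAAT box is in 3 of 8, against 33.8%, and an E2F site in 2 of 8 (Casp2 and Fadd), against 1.86%. None of the 8 has a TATA box, which 12.4% of all windows have. These matches describe letters only, and the table gives 1 start site for genes that can have several.

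Casp8 (chromosome 1, 58795233 to 58847503 in GRCm38.p6, the build of all gene positions here) encodes the initiator caspase that death receptors activate. Its probe set 102328_at read 1.79, 2.02, 2.13 and 2.09 in GCP 1 to GCP 4. In pretumor 1 to 5 it read 1.43, 1.48, 1.71, 1.60 and 1.81, and in tumor 1 to 5 it read 1.64, 1.56, 1.64, 1.53 and 1.42. Every tumor array lay below every GCP array, while pretumor 5 lay just above GCP 1. Casp8 fell by 0.40 ± 0.09 (SE) on the log2 scale in pretumor against GCP samples (adjusted p = 0.0224, limma, exact permutation p = 0.0238) and by 0.45 ± 0.09 in tumor against GCP samples (adjusted p = 0.0117, limma). In the second comparison the exact permutation p over 4 and 5 arrays was 0.00794, the smallest that this number of arrays allows. Tumor and pretumor samples differed by -0.05 (95% interval -0.23 to 0.13). All these values lie in the low band, so no fold is given, and with intensities floored at 16 the difference is 0 in both. The pretumor call ended without GCP 2, GCP 3, GCP 4 or pretumor 2 (adjusted p = 0.0594 to 0.0765) and with pretumor and GCP samples fitted alone (adjusted p = 0.0605). With GCP 1 and 2, and GCP 3 and 4, each averaged to 1 value, both calls ended, at an adjusted p of 0.125 for pretumor and 0.0766 for tumor samples. Casp8 was lower than either GCP pair in both later groups, by 0.30 and 0.51 in pretumor and by 0.35 and 0.56 in tumor samples, for GCP 1 and 2 and for GCP 3 and 4 in that order.

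Fadd (chromosome 7, 144578323 to 144582441) encodes the adaptor between death receptors and caspase-8. Its probe set 100500_at read 2.20, 2.19, 2.23 and 2.10 in GCP 1 to 4, then 2.01, 2.01, 1.76, 2.08 and 1.96 in pretumor 1 to 5, and 2.06, 2.03, 2.14, 1.99 and 2.11 in tumor 1 to 5. The pretumor arrays all lay below the GCP arrays, and the tumor arrays overlapped both groups. The difference in pretumor against GCP samples, -0.22 ± 0.06, was not called (adjusted p = 0.0589, limma). It was called without pretumor 3 (adjusted p = 0.0403) or without pretumor 4 (adjusted p = 0.0418). Of 25 alternatives in the processing only 4 called it. Its adjusted p in limma was 0.11 with pretumor and GCP samples fitted alone and 0.293 with GCP pairs averaged. The tumor samples differed from GCP by -0.11 (95% interval -0.24 to 0.01, adjusted p = 0.397). Fadd too was in the low band throughout.

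**Figure D2:**
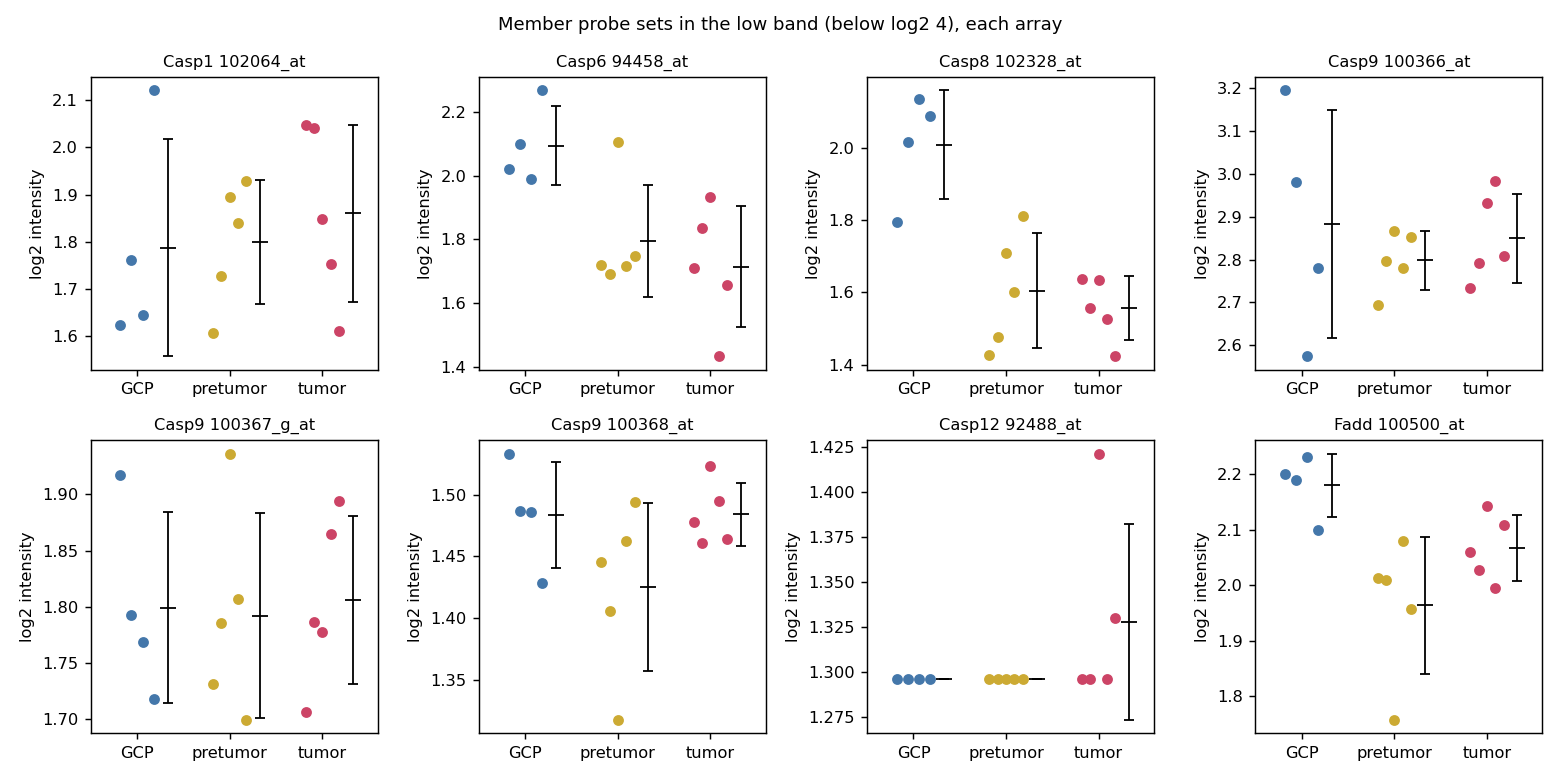
Log2 intensity of the 8 member probe sets in the low band, 1 point per array, with the group mean and SD as a black bar beside each group (4 GCP, 5 pretumor and 5 tumor arrays). The vertical axes differ between panels and span small ranges. The Casp8 points of every tumor array lie below those of every GCP array, and pretumor 3 stands above the other pretumor arrays for Casp6.

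The mitochondrial route had probe sets above the low band for both its members. Apaf1 (chromosome 10, 90989311 to 91082743), the scaffold of the apoptosome, read 5.58, 5.65, 5.52 and 5.61 on 103796_at in GCP 1 to 4. Pretumor 1 to 5 read 5.46, 5.47, 6.16, 5.53 and 5.25, and tumor 1 to 5 read 6.80, 5.87, 5.76, 6.28 and 5.72. The GCP arrays were close together, every tumor array was above all of them, and pretumor 3 was above 3 of the tumor arrays. Means were 5.59 ± 0.06 in GCP, 5.57 ± 0.35 in pretumor and 6.09 ± 0.46 in tumor arrays (SD). The tumor mean was 1.41 times the GCP mean (difference 0.50 ± 0.22 SE, 95% interval 0.01 to 0.98) and 1.43 times the pretumor mean (difference 0.51 ± 0.21, 95% interval 0.05 to 0.97). Neither difference was called (adjusted p = 0.316 and 0.372, limma). Without tumor 1 they were 0.32 and 0.33. In pretumor against GCP samples the difference was -0.02 (95% interval -0.51 to 0.47), so these neighbours in the order did not differ beyond their spread.

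Casp9 (chromosome 4, 141793612 to 141815978), the initiator that the apoptosome activates, was read above the low band by 103711_at. In GCP 1 to 4 it read 6.40, 6.28, 5.83 and 6.06. Its values were 5.19, 5.59, 5.87, 5.96 and 5.95 in pretumor 1 to 5 and 5.59, 5.17, 5.87, 5.50 and 5.38 in tumor 1 to 5. Means stepped down over the stages, at 6.14 ± 0.25, 5.71 ± 0.33 and 5.50 ± 0.26 (SD), yet GCP 3 lay inside the range of both later groups. The tumor mean was 0.64 times the GCP mean, a difference of -0.64 ± 0.18 (95% interval -1.04 to -0.24) that was not called (adjusted p = 0.0774, limma). Pretumor against GCP gave -0.43 ± 0.18 (adjusted p = 0.279) and tumor against pretumor -0.21 ± 0.17 (adjusted p = 0.723). The tumor difference was called without tumor 3 (adjusted p = 0.04) or pretumor 1 (adjusted p = 0.0386), and when only probe sets with a group mean above the low band were fitted (adjusted p = 0.0334). Of 26 alternatives in the processing only 5 called it, and in the others its adjusted p in limma reached 0.352. Against GCP 1 and 2 alone the tumor mean differed by -0.84, and against GCP 3 and 4 alone by -0.44.

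The other Casp9 probe sets did not show this step. Probe sets 100366_at, 100367_g_at and 100368_at averaged 2.88, 1.80 and 1.48 in GCP, 2.80, 1.79 and 1.43 in pretumor, and 2.85, 1.81 and 1.48 in tumor arrays. Their tumor minus GCP differences were -0.03, 0.0066 and 0.0006, with adjusted p of 0.99, 1 and 1 in limma. The annotation ties 103711_at to another sequence record than these 3, and which part of the transcript each reads was not examined here. The probe sets of Casp9 therefore disagree, and all 3 without the step lie in the low band in every group.

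**Figure D3:**
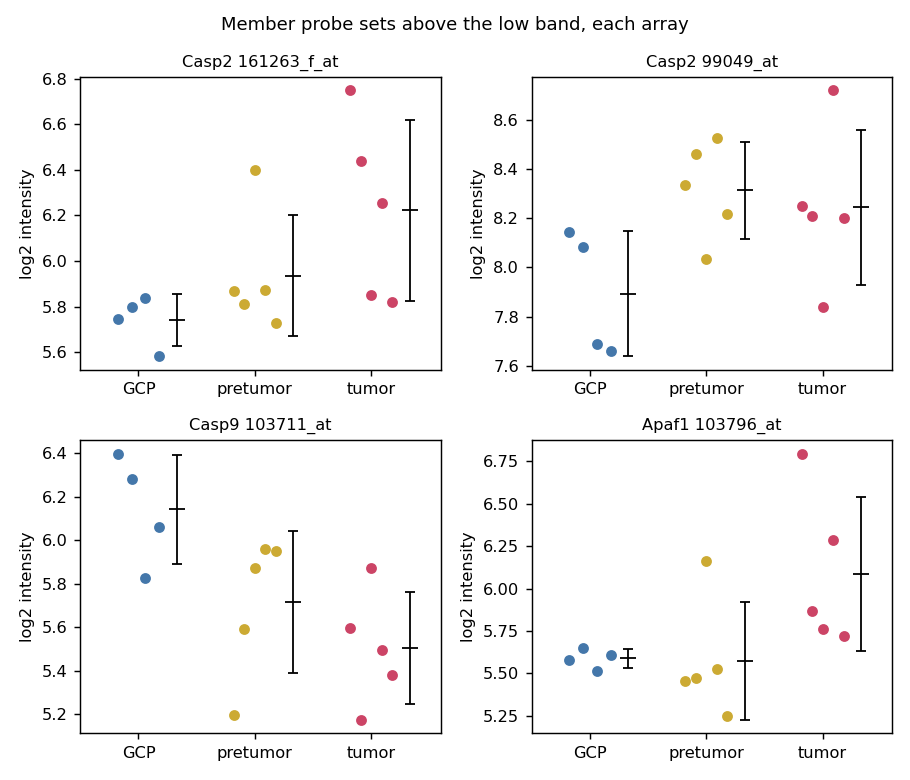
Log2 intensity of the 4 member probe sets above the low band, 1 point per array, with the group mean and SD as a black bar beside each group (4 GCP, 5 pretumor and 5 tumor arrays). Casp9 means run 6.14, 5.71 and 5.50 over the stages, and Apaf1 and Casp2 161263_f_at are spread widest in the tumor arrays.

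Casp2 (chromosome 6, 42264902 to 42282508) encodes an initiator caspase of the response to stress and failed division. Its probe set 99049_at read 8.14, 8.08, 7.69 and 7.66 in GCP 1 to 4, then 8.33, 8.46, 8.03, 8.53 and 8.22 in pretumor 1 to 5, and 8.25, 8.21, 7.84, 8.72 and 8.20 in tumor 1 to 5. The 2 GCP pairs stood 0.44 apart, and GCP 1 and 2 lay within the pretumor range while GCP 3 and 4 lay below it. The pretumor mean was 1.34 times the GCP mean (difference 0.42 ± 0.17, adjusted p = 0.236, limma) and the tumor mean 1.27 times (difference 0.35 ± 0.17, adjusted p = 0.358, and 0.23 without tumor 4). Against GCP 1 and 2 the pretumor difference was 0.20, and against GCP 3 and 4 it was 0.64. A measure of RNA integrity, the Gapdh 3′ signal over its 5′ signal (log2), parts the same arrays, at 0.46 and 0.56 in GCP 1 and 2 and -0.02 in each of GCP 3 and 4. The same ratio for actin does not part them, at 4.02 and 4.27 in GCP 1 and 2 and 3.96 and 4.18 in GCP 3 and 4. The Gapdh ratio ran from 0.0056 to 1.08 in pretumor and from 0.15 to 0.42 in tumor samples. Casp9 103711_at too stood higher in GCP 1 and 2 than in GCP 3 and 4, by 0.40. The part of either ratio in the values of Casp2, or of any other probe set, was not tested.

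The second Casp2 probe set, 161263_f_at, whose suffix marks probes shared within a sequence family, had another pattern. In GCP 1 to 4 it read 5.75, 5.80, 5.84 and 5.58. It read 5.87, 5.81, 6.40, 5.87 and 5.73 in pretumor 1 to 5 and 6.75, 6.44, 5.85, 6.26 and 5.82 in tumor 1 to 5. Pretumor 3, tumor 1, tumor 2 and tumor 4 were high and the other 10 arrays lay at 5.87 or below. The tumor mean was 1.4 times the GCP mean (difference 0.48 ± 0.19, adjusted p = 0.227, limma) and 1.22 times the pretumor mean (difference 0.29 ± 0.18, adjusted p = 0.611). Without tumor 1 the second difference was 0.15. The Casp2 probe sets disagree on pretumor 3, which was the highest pretumor array on 161263_f_at and the lowest on 99049_at.

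The 4 arrays high for Casp2 161263_f_at were also the 4 highest for Apaf1, at 5.87 to 6.80 against at most 5.76 on the other 10. The sets are parted by Casp2, while on Apaf1 tumor 2 lay close to the highest of the other 10. Because of the gap on Casp2, no correlation is given over all 14 arrays. Among the other 10 arrays Pearson r between the probe sets was 0.09 and Spearman rho 0.02, given as a description. On the axis of array deviations the 4 arrays lay at 28.4 (pretumor 3), 10.2 (tumor 1), 29.8 (tumor 2) and -16.5 (tumor 4). Over all 14 arrays the deviation from the group mean had an r with this axis of 0.63 for Casp2 161263_f_at and 0.36 for Apaf1, given as a description.

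**Figure D4:**
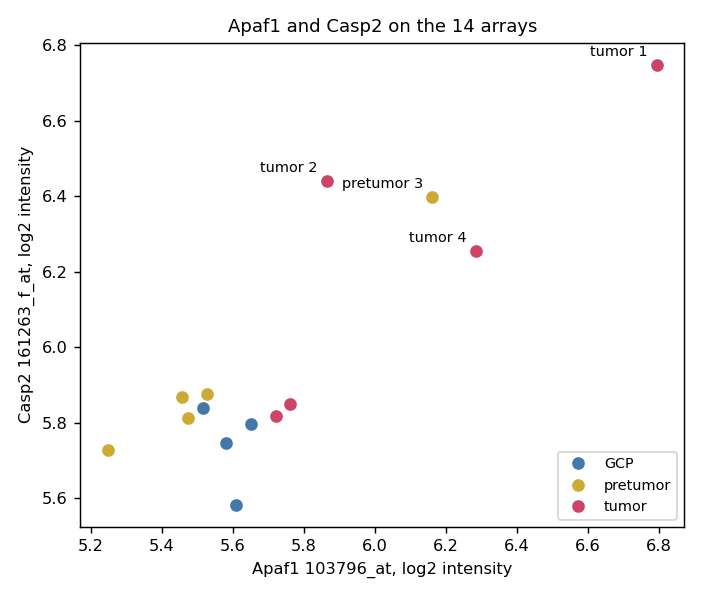
Apaf1 103796_at (horizontal axis) against Casp2 161263_f_at (vertical axis), both as log2 intensity, 1 point per array and coloured by group. Pretumor 3, tumor 1, tumor 2 and tumor 4 lie apart on Casp2, at 6.26 or above, and the other 10 arrays lie at 5.87 or below. On Apaf1 tumor 2, at 5.87, lies close to the highest of the other 10, at 5.76.

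Casp6 (chromosome 3, 129901415 to 129914112), an executioner that cuts nuclear lamins and also acts in axon pruning, read 2.02, 2.10, 1.99 and 2.27 on 94458_at in GCP 1 to 4. It read 1.72, 1.69, 2.11, 1.72 and 1.75 in pretumor 1 to 5 and 1.71, 1.84, 1.93, 1.43 and 1.66 in tumor 1 to 5. Every tumor array lay below every GCP array, and so did the pretumor arrays except pretumor 3. Within the low band the tumor difference was -0.38 ± 0.11 (adjusted p = 0.0793, limma) and the pretumor difference -0.30 ± 0.11 (adjusted p = 0.185), neither called. Without pretumor 3 the tumor difference was called (adjusted p = 0.0378), and likewise without tumor 3 (adjusted p = 0.0409). Of 25 alternatives in the processing only 5 called it, and with GCP pairs averaged its adjusted p in limma was 0.35.

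Groups that did not overlap were found for 3 of the 12 member probe sets in tumor against GCP samples (Casp6 and Casp8 lower, Apaf1 higher), against 8.0% of all probe sets. In pretumor against GCP samples it was 1 of 12 (Fadd, lower), against 10.1%, and in tumor against pretumor samples 0 of 12, against 2.62%.

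Of the inflammatory branch, Casp1 (chromosome 9, 5298517 to 5307281), the caspase that matures interleukin-1β in microglia and macrophages, averaged 1.79 ± 0.23 in GCP, 1.80 ± 0.13 in pretumor and 1.86 ± 0.19 in tumor arrays on 102064_at. Its differences were 0.01 (95% interval -0.25 to 0.27) in pretumor and 0.07 (95% interval -0.19 to 0.33) in tumor against GCP samples. Casp12 (chromosome 9, 5345442 to 5373034), a caspase of the endoplasmic reticulum and of inflammatory signalling, was at the floor (an intensity of 2.45, log2 of 1.30) on 12 of 14 arrays on 92488_at, and read 1.42 on tumor 3 and 1.33 on tumor 5. The summed intensity of 16 microglia and macrophage markers was 1010 to 1640 in pretumor and 761 to 2230 in tumor samples, against 296 to 658 in GCP samples. Of these 16 markers limma called 2 higher in each later group, Lyz2 and Ctss, while 11, among them Cx3cr1, Aif1, Itgam and Ptprc, did not leave the low band in any group. The rest were not called. In GCP, pretumor and tumor samples Laptm5 averaged 7.50, 7.73 and 7.45, Csf1r 4.13, 3.88 and 4.15, and C1qb 3.57, 4.61 and 4.39. Of 7 endothelial markers limma called 4 lower in pretumor and 5 lower in tumor against GCP samples, with sums of 41.6 to 59.5 in pretumor and 26.0 to 39.7 in tumor samples, against 82.2 to 117 in GCP samples, but 6 of the 7 were in the low band in every group. Sums of 7 granule cell lineage markers were 8110 to 11500 in pretumor and 8740 to 13000 in tumor samples, against 14500 to 17000 in GCP samples. Of these limma called 2 lower in each later group, Neurod1 and Pax6 (Pax6 at 8.80 in pretumor and 8.31 in tumor samples, against 10.54). The others were not called, and Mycn had a higher mean in both later groups (7.49 and 6.89, against 6.74). The lower sums are thus not a change of the whole lineage list. Sums of 7 markers of astrocytes and Bergmann glia were 323 to 417 in pretumor and 83.9 to 237 in tumor samples, against 815 to 1600 in GCP samples, and 3 of the 7 stayed in the low band. Against GCP samples limma called 1 of them higher and 0 lower in pretumor samples (Aldoc, at 3.67 against 2.44) and 3 lower in tumor samples, so the lower pretumor sum is not a change of the whole list. Oligodendrocyte markers, 7 measured and 4 of them in the low band, summed to 183 to 492 in pretumor and 54.7 to 91.9 in tumor samples, against 107 to 181 in GCP samples. Of these limma called 3 higher in pretumor against GCP (Mog, Mag and Mal), 1 lower in tumor against GCP and 4 lower in tumor against pretumor samples. Of 6 markers of Purkinje cells and interneurons, 3 of them in the low band, 1 was called lower in each later group against GCP. This was Gad1, at 3.50 in pretumor and 2.10 in tumor samples, against 6.37. The sums were 38.5 to 92.3 in pretumor and 25.6 to 52.6 in tumor samples, against 74.5 to 174 in GCP samples. Every other marker of this list had a higher mean in pretumor than in GCP samples, uncalled (Calb1, for example, at 4.26 against 2.80). The lower pretumor sum is thus not a change of the whole list. Calb1 was called lower in tumor against pretumor samples (adjusted p = 0.0489, limma). Sums of 3 choroid plexus markers were 5140 to 14500 in pretumor and 14.3 to 1150 in tumor samples, against 618 to 3210 in GCP samples. Ttr, the highest of them in every group, was not called in any comparison. Of the 3, limma called 1 higher in pretumor against GCP (Kl) and 0 in tumor against GCP samples. It called 2 lower in tumor against pretumor samples (Kl and Folr1). Erythrocyte markers, 3 measured and 1 of them in the low band, summed to 743 to 3410 in pretumor and 12.9 to 387 in tumor samples, against 1920 to 4370 in GCP samples. Against GCP samples limma called 0 of them in pretumor and 2 lower in tumor samples (Hbb-b2 and Hba-a1). The part of these shifts in the lower Casp8 signal of the later groups was not tested.

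The rest of the death pathway was read through 46 other genes, of which 34 were measured, by 44 probe sets, 34 of them in the low band in every group. limma called 0 higher and 2 lower in pretumor against GCP samples, 0 higher and 1 lower in tumor against GCP samples, and 0 in either direction in tumor against pretumor samples, where the backgrounds are 1.67% higher and 2.69% lower, 1.41% and 3.19%, and 0.209% and 0.789%. The counts moved with the processing. In pretumor against GCP samples the higher count ran from 0 to 3 over the alternatives (3 with array weights, 2 with centring of arrays and 2 with the compared groups alone) and the lower count from 0 to 2, so the balance of directions is not settled. In tumor against GCP samples each count ran from 0 to 1. The medians over the 44 probe sets were 0, 0.03 and 0.03. Dffa, the inhibitor that keeps the apoptotic nuclease in check until caspases cut it, gave 2 of the 3 calls. Its probe set 99485_at read 4.20, 4.03, 3.91 and 4.23 in GCP 1 to 4, 3.31 to 3.78 in pretumor and 3.20 to 3.62 in tumor samples, so that both later groups lay below all GCP arrays. Its GCP mean of 4.09 is at the edge of the low band and the later groups are inside it. Dffa fell by 0.55 ± 0.11 in pretumor (adjusted p = 0.0176, limma) and by 0.63 ± 0.11 in tumor samples (adjusted p = 0.00775, limma). Both calls ended with GCP pairs averaged (adjusted p = 0.114 and 0.0617), and the first also without GCP 1 (adjusted p = 0.0557) or GCP 4 (adjusted p = 0.064). Its other probe set, 160866_at, differed by -0.13 and -0.15 in the low band (adjusted p = 0.33 and 0.267).

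Cradd, the adaptor that joins caspase-2 to its activating platform, gave the remaining call. On 102952_g_at it read 2.77, 2.88, 3.08, 2.68 and 2.80 in pretumor 1 to 5, against 3.27, 3.06, 3.52 and 3.13 in GCP 1 to 4. These groups touch, with pretumor 3 above GCP 2. Cradd fell by 0.40 ± 0.10 in pretumor samples within the low band (adjusted p = 0.0339, limma). Its other probe set, 102951_at, differed by -0.13 there, also in the low band and not called (adjusted p = 0.272, limma). In tumor samples the difference on 102952_g_at was -0.24 (adjusted p = 0.228, limma). The pretumor call on 102952_g_at ended without any 1 of GCP 1, GCP 3, GCP 4, pretumor 1, pretumor 2, pretumor 4 or pretumor 5 (adjusted p = 0.0528 to 0.0855), with the compared groups fitted alone (adjusted p = 0.0864), with GCP pairs averaged (adjusted p = 0.0902) and with a floor at 16, where the difference is 0.

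The gene with the highest mean signal in each role was not called in any comparison. Faf1, a FAS-associated factor, averaged 6.62 ± 0.62 in GCP, 6.16 ± 0.70 in pretumor and 6.08 ± 1.13 in tumor arrays on 160098_s_at. Aifm1, a mitochondrial flavoprotein, averaged 7.04 ± 0.04, 6.77 ± 0.17 and 6.74 ± 0.32. Among the inhibitors Birc5 (survivin, a mitotic protein as well) averaged 7.99 ± 0.24, 7.57 ± 0.19 and 7.82 ± 0.42. Lmnb1, a nuclear lamin cut by caspase-6, averaged 9.69 ± 0.45, 9.46 ± 0.43 and 9.61 ± 0.22. Casp4, a further inflammatory caspase, averaged 1.43, 1.51 and 1.55 in the low band. Il1a, a cytokine of the inflammatory branch, stayed between 1.68 and 2.50 on every array but tumor 3, which read 6.23. Its pretumor arrays, at 2.06 to 2.50, all lay above its GCP arrays, at 1.68 to 1.85, as 10.1% of all probe sets did not overlap there. The 4 probe sets of its role, all with group means in the low band, had median differences of 0.45, 0.58 and 0.30 in the 3 comparisons. None of them was called.

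A further 2 genes were chosen after their values were seen. Cycs, cytochrome c, the trigger of the apoptosome, averaged 6.31 ± 0.32 in GCP, 6.21 ± 0.58 in pretumor and 6.51 ± 0.72 in tumor arrays, with no call (adjusted p = 0.988, 0.935 and 0.81). Birc2, a ubiquitin ligase that restrains caspase-8 signalling, read 6.17 to 6.69 in pretumor arrays on its probe set above the low band. All lay above GCP 1 to 4, at 5.60, 5.92, 4.78 and 5.78. The tumor arrays, at 5.92 to 6.75, did so too, with tumor 5 barely above GCP 2. The pretumor difference of 0.88 ± 0.23 missed the threshold (adjusted p = 0.0541, limma), and the tumor difference was 0.68 ± 0.23 (adjusted p = 0.143). Groups failed to overlap for 10.1% and 8.0% of all probe sets in these comparisons. The other Birc2 probe set, in the low band, differed by 0.09 and 0.17 (adjusted p = 0.585 and 0.203, limma).

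**Figure D5:**
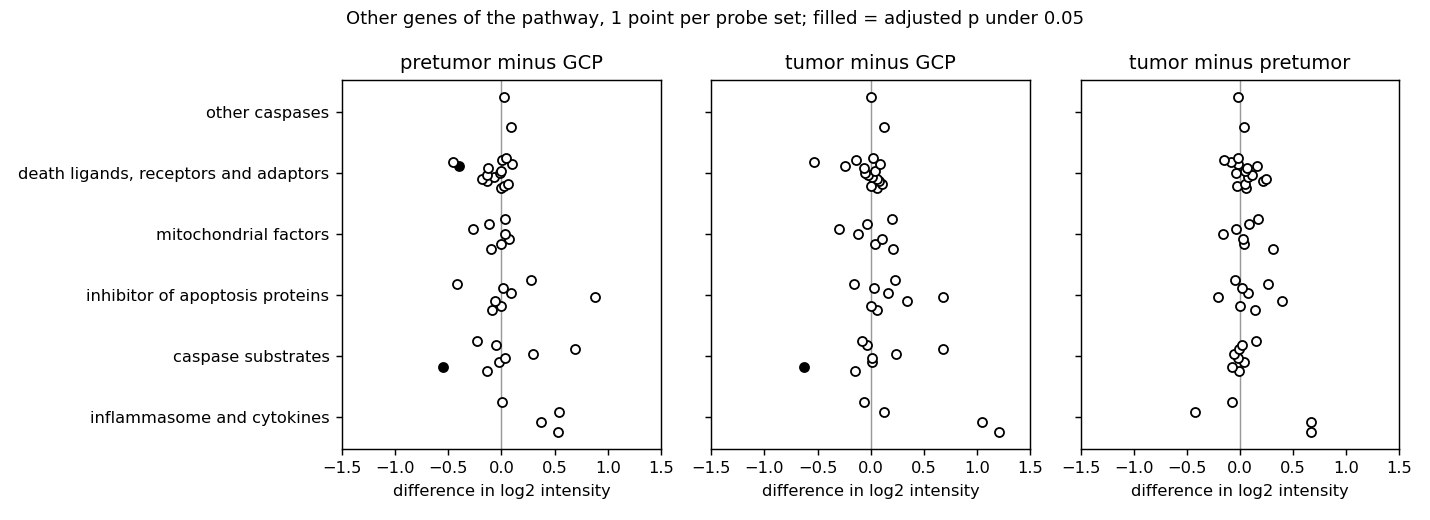
Differences in log2 intensity of 44 probe sets of other genes of the death pathway, 1 point per probe set, in rows by role and in panels by comparison. Filled points have an adjusted p under 0.05: they are Cradd and Dffa in pretumor minus GCP and Dffa in tumor minus GCP.

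The genes most like each member above the low band were ranked by Pearson r over the 14 arrays among 3330 single-symbol probe sets with a mean of 16 or more. For Casp9 103711_at they were Cyp51, a sterol demethylase of cholesterol synthesis (r = 0.92), and Wsb2 (r = 0.90). For Casp2 99049_at they were Tbl2 (r = 0.92) and Dnmt1, the maintenance DNA methyltransferase (r = 0.92). For Casp2 161263_f_at they were Slc30a5, a zinc transporter (r = 0.93), and Ktn1, kinectin (r = 0.92). For Apaf1 they were Srsf1, a splicing factor (r = 0.91), and Znrf2 (r = 0.91). After the group means were taken out, r for these 8 pairs ran from 0.83 to 0.93. The arrays share whole-array deviations, and the ranking was not repeated without the 4 arrays high for Casp2 161263_f_at.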

How the data were processed

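RNA of 14 samples was measured on oligonucleotide arrays, 1 array each. The deposited intensity values are linear, 1 per probe set, and the sources used here do not give how the authors normalised them. Deposited intensities were floored at their 10th percentile (2.45) and taken to log2. Array medians then lay within 0.09 of each other, so no further scaling was done. Of 12488 probe sets, 66 controls were left out. Of the rest, 10833 have 1 gene symbol in the platform annotation, 396 several and 1193 none, and genes were named only from the first kind.

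Group means were fitted in limma 3.58.1 (R 4.3.3) over 12422 probe sets and all 3 groups, with Benjamini-Hochberg adjustment, and the script was tested on simulated data. Exact permutation tests of 1 value were two-sided, over 126 or 252 splits of the arrays, with a smallest p of 0.00794. Precision is limited by how few arrays there are. The genes named are all members, every gene of the pathway list called in any comparison, the gene with the highest mean of each role, and the 2 genes most like each member above the low band. Cycs and Birc2 lie outside this rule, were chosen after their values were seen, and are marked so. The members and lists were chosen with earlier results of these data known. Upstream windows came from RefSeq (GRCm38.p6).

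Alternatives were pseudocounts of 1 and 16, a floor at 16, quantile normalisation, centring of arrays and a filter on low values. Others were the compared groups alone, a robust trended prior, array weights, a replicate block, GCP pairs averaged, and arrays left out. Centring used the median of each array over only those probe sets whose mean log2 intensity over all arrays was at least 4.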

Additional observations from a re-analysis of the deposited data

Results flagged for a closer look

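Within groups of 4 or 5 arrays, 64 groups of the named probe sets were examined for an array far from the others, and 4 values stood apart. Chance marks about 1 in 20 groups. Pretumor 3 read 6.40 on Casp2 161263_f_at, where the other pretumor arrays read 5.73 to 5.87. The same array read 2.11 on Casp6 94458_at, where the others read 1.69 to 1.75. Tumor 3 read 1.42 on Casp12 92488_at, where the other tumor arrays read 1.30 to 1.33 and mostly stood at the floor. Tumor 3 also read 6.23 on Il1a 94755_at, where the others read 1.85 to 2.45. The cause of these values was not tested.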

How the results depend on the processing

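The Casp8 calls kept their direction wherever a difference remained. Over 25 alternatives its adjusted p in limma ran from 0.00133 to 1 in pretumor against GCP samples (called in 17) and from 0.00163 to 1 in tumor against GCP samples (called in 23). In pretumor against GCP samples the count of member probe sets called, 1, became 0 with a floor at 16, with the filter on low values (which leaves Casp8 out), with the compared groups alone and with GCP pairs averaged. It became 4 with array weights (Casp2 99049_at, Casp6, Casp8 and Fadd) and 2 without pretumor 3 and tumor 2 (Casp8 and Fadd), and leaving out 1 array at a time gave 0 to 2. In tumor against GCP samples the count, 1, became 0 with a floor at 16 and with GCP pairs averaged. It became 3 with centring of arrays and 3 with array weights (Casp6, Casp8 and Casp9 103711_at in both), and 2 without pretumor 3 and tumor 2 (Casp6 and Casp8). With the filter on low values the 1 call was Casp9 103711_at in place of Casp8, and leaving out 1 array at a time gave 1 to 3. In tumor against pretumor samples the count, 0, became 1 with array weights (Apaf1, adjusted p = 0.0433) and stayed 0 with each array left out in turn (0 to 0). Other than where fewer probe sets or arrays enter by construction, the cause was not tested. Deviations of arrays with the same replicate number correlated from -0.32 to 0.51, not above 0.1 in every pair. Between pretumor and GCP arrays they gave 0.38, 0.28 and 0.51 for replicates 1 to 3 and -0.27 for replicate 4. With so few arrays per group these values cannot decide whether the numbers pair some of the samples. The main fit uses no pairing. With the replicate block the pretumor against GCP count became 0 (Casp8 adjusted p = 0.0538), and the other 2 member counts did not move. Over all probe sets, calls in pretumor against GCP samples numbered 541, against 194 with a floor at 16, 1508 with array weights, 168 with GCP pairs averaged and 331 without GCP 4. In tumor against GCP samples they numbered 571, against 232, 998, 198 and 338 under the same alternatives, and 335 with the compared groups alone. In tumor against pretumor samples they numbered 124, against 32 with a floor at 16, 50 with the compared groups alone, 393 with array weights, 76 with the replicate block, 69 with GCP pairs averaged and 70 to 72 without pretumor 1, pretumor 2 or tumor 4. For the pathway list the same alternatives were added after seeing the data. Its count called higher in pretumor against GCP samples, 0, became 1 with a pseudocount of 1, quantile normalisation, the filter on low values or the robust trended prior, 2 with centring, the compared groups alone or the replicate block, and 3 with array weights. Its count called lower there, 2, became 0 with a floor at 16 or GCP pairs averaged and 1 with the filter, the compared groups alone or the replicate block. Cradd was called in 14 of 25 in pretumor against GCP samples (not with a floor at 16, nor with the replicate block, adjusted p = 0.0629), and Dffa in 22 of 26 there and 24 of 26 in tumor against GCP samples, ending with a floor at 16 (adjusted p = 0.352 and 0.323) and in the cases given beside its values. Signal in the low band limits 8 of the 12 member probe sets.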
